A study of Mus musculus with 24 samples.

Results

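The cytosolic ribosomal protein genes, which encode the protein part of the ribosome that translates nuclear mRNAs, were followed through 24 mouse microglia libraries in 8 groups of 3. The 79 genes were chosen from 55434 in the count table as protein-coding rows whose symbol begins with Rps or Rpl followed by a subunit number (or is Rpsa, Rplp0, Rplp1 or Rplp2), without the S6 kinases, at a mean level of at least 10 CPM (counts in every 1000000 gene reads) over all libraries. By symbol, 47 belong to the large subunit and 32 to the small subunit. The level used for this choice is therefore no result. The adult groups were microglia of untreated 16-week-old MRL/lpr mice, in which the lpr mutation disrupts Fas and a disease like lupus sets in, and of MRL/MpJ mice of that age, the parent strain. The other 6 groups were microglia of neonatal MRL/lpr mice, all with the lpr mutation, grown for 48 h in medium with serum and exposed for 6 h to interferon gamma (IFNg), interleukin 6 (IL-6), interferon alpha (IFNa), tumour necrosis factor alpha (TNFa) or the mixture of the 4 cytokines, or left unstimulated. Cytokine doses, the sex of the mice and any batch are not in the labels. All cells came from enzymatically digested brain by magnetic selection for CD11b, a surface protein that other myeloid cells carry too. The labels do not say whether replicates were separate animals or cultures, so p-values measure the spread between these libraries, which may be technical.

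The mammalian ribosome has a small subunit, which holds the mRNA and reads its codons, and a large subunit, which joins amino acids and lets the new chain leave through a tunnel. Its proteins are made in matched amounts, and their mRNAs are short, abundant and long-lived. Most of these mRNAs begin with a run of pyrimidines, the 5′ terminal tract, through which the kinase complex mTORC1 and the binding protein LARP1 set how much of each is translated. Microglia, the resident macrophages of the brain, make many new proteins on meeting an inflammatory signal and rely on this machinery to do so.

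Libraries held 10084927 to 19316994 gene reads. Markers of microglia were present in all of them, and the 10 genes of that list summed to 41777 to 45456 CPM in adult MRL/lpr, 63050 to 64135 CPM in adult MRL/MpJ and 5175 to 9740 CPM in the neonatal libraries. Fas itself stood at 0.947 ± 0.714 CPM in adult MRL/lpr and 0.451 ± 0.243 CPM in MRL/MpJ (SD, n = 3 each), too low to check the strain labels. All 79 ribosomal protein genes passed the filter on low counts in both the adult and the neonatal fit.

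The members just inside the level of the rule were Rpl13a at 13.2 CPM, Rps19bp1 at 20.97 CPM and Rpl22l1 at 43.4 CPM. Just outside were Rpl9-ps6 at 5.099 CPM, Rps18-ps5 at 3.77 CPM, Rps10 at 2.52 CPM and Rps27rt at 2.03 CPM. In all, 13 matching symbols fell below it, among them Rpl24 with 70 reads over all libraries. Rps10 and Rpl24 encode core proteins of every ribosome. Of their exon bases, 20.6% and 47.0% lie on the same strand as exons of another annotated gene, and for Rpl13a the figure is 35.4%. Such overlap, and near-identical pseudogenes, make counts of these genes uncertain. Rps2 has 12 pseudogenes under its own name that together drew 386.6 CPM, Rpl14 has one with 151.6 CPM, and 54 of the 79 members share no exon base with another gene. Rps19bp1 is a protein that binds Rps19, and Rpl7l1, Rpl22l1 and Rps27l are paralogues of ribosomal proteins. They match by symbol and were kept, and Fau and Rack1, ribosomal proteins under other symbols, are given apart.

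Compared per length (counts per kilobase of the table's gene length, scaled to the same sum in each library), the members spanned 19.6 for Rpl13a to 6655 for Rplp1, with a median of 756 and a middle range of 401 to 1135. Rplp1, an acidic protein of the stalk that recruits elongation factors, was followed by Rps15 at 2631 and Rps29 at 2530, both small subunit proteins. By library, the per-length level of Rplp1 was 2783, 3947 and 2801 in adult MRL/lpr, against 6435, 6818 and 5689 in adult MRL/MpJ. The adult groups did not overlap. In unstimulated neonatal cells it was 9015, 8504 and 7606, and it was the highest member in each of the 8 groups. The lowest after Rpl13a were Rps19bp1 at 60.8 and Rpl22l1 at 68.3. The median per-length level was 621 over large subunit genes and 837 over small subunit genes. These ranks depend on the length used. With the length of the principal transcript of the GENCODE M21 annotation, the highest were Rplp1, Rps12 and Rps29, the lowest were Rpl13a, Rps19bp1 and Rpl7l1, and the Spearman correlation of both scales across the 79 genes was 0.816.

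The start of 6 of these genes is shown because the pyrimidine tract sits there and because the values of these members frame what follows. Rpl38, Rps21 and Rps28 were among the members furthest below MRL/MpJ in adult MRL/lpr cells, Rpl10a was the least changed there, and Rps24 and Rpl13a stood at the ends of the range under the cytokine mixture. They were chosen after their values were seen. Each line gives 15 bases before an annotated start and 25 from it, from RefSeq on GRCm38.p6, with the tract in capitals (a C and at least 4 further pyrimidines, beginning within 5 bases of the start). Rps21, Rps24 and Rpl10a had 2 annotated starts each. Where a gene had several, the first start with a tract was shown if any had one, so this choice favours a tract. The Rps24 line begins at 24490663, inside that gene's span of chr14:24487125-24496959.
Rpl38 (chr11:114668565-114668604, plus strand): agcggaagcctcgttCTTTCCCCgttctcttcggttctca
Rps21 (chr2:180257364-180257403, plus strand): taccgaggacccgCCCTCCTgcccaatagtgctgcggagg
Rps28 (chr17:33824538-33824577, minus strand): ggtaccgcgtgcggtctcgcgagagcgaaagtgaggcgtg
Rps24 (chr14:24490663-24490702, plus strand): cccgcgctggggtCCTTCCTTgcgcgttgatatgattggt
Rpl13a (chr7:45128721-45128760, minus strand): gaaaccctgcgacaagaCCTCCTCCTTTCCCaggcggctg
Rpl10a (chr17:28328456-28328495, plus strand): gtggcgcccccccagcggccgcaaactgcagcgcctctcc
The tract was 8 bases in Rpl38, 7 in Rps21, 8 in Rps24 and 14 in Rpl13a, and none was found in the windows of Rps28 and Rpl10a.

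A RefSeq window of 250 bases before to 50 after the start was at hand for 59 of the 79 members. A tract by this definition was found in 28 of the 59 (47.5%), against 5718 of all 27025 genes with a window (21.2%). A gene with several windows was counted if any of them matched. The letters CCGGAAG, a core bound by ETS factors, were found on either strand in 24 of the 59 (40.7%), against 9.93% of all genes with a window. The letters AAGATGGC, a core bound by YY1, were in 6 of the 59, against 862 of all genes with a window (3.19%). A match describes the letters and is not a measured site. In the adult comparison the median log2 fold change was -0.98 over the 28 members with a tract and -1.06 over the 31 without.

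Ribosomal protein genes took the smallest share of reads in adult MRL/lpr microglia. The 79 genes drew 1.29%, 1.77% and 1.3% of gene reads in adult MRL/lpr, against 2.53%, 2.72% and 2.29% in adult MRL/MpJ. All 3 MRL/lpr libraries lay below all 3 MRL/MpJ libraries, with means of 1.46% ± 0.273 and 2.52% ± 0.215 (SD, n = 3 each). In bulk RNA, fewer cells of a type and less RNA per cell cannot be told apart. Cultured neonatal cells held between 3.1% and 4.84%. Adult and neonatal cells differ in age and in culture at once, so no test was made between them, and values side by side over all 8 groups are a description.
Among neonatal groups the mean share was 4.12% ± 0.572 with IFNg, 4.18% ± 0.584 with IL-6, 3.71% ± 0.384 with IFNa, 4.23% ± 0.333 with TNFa, 3.66% ± 0.491 with the mixture and 4.55% ± 0.404 in unstimulated cells (SD, n = 3 each). Replicate 3 had the lowest share in 6 of 6 groups, and libraries with the same number deviated from their group means together. Within a number, the share was below the unstimulated library in 3 of 3 replicates with IFNg, IFNa, TNFa and the mixture, and in 2 of 3 with IL-6. A share depends on what else is sequenced. With library sizes scaled by TMM, the trimmed mean of M values, in place of the total, the mixture stood at 4.39% and unstimulated cells at 4.1%, the other way round.

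**Figure D1:**
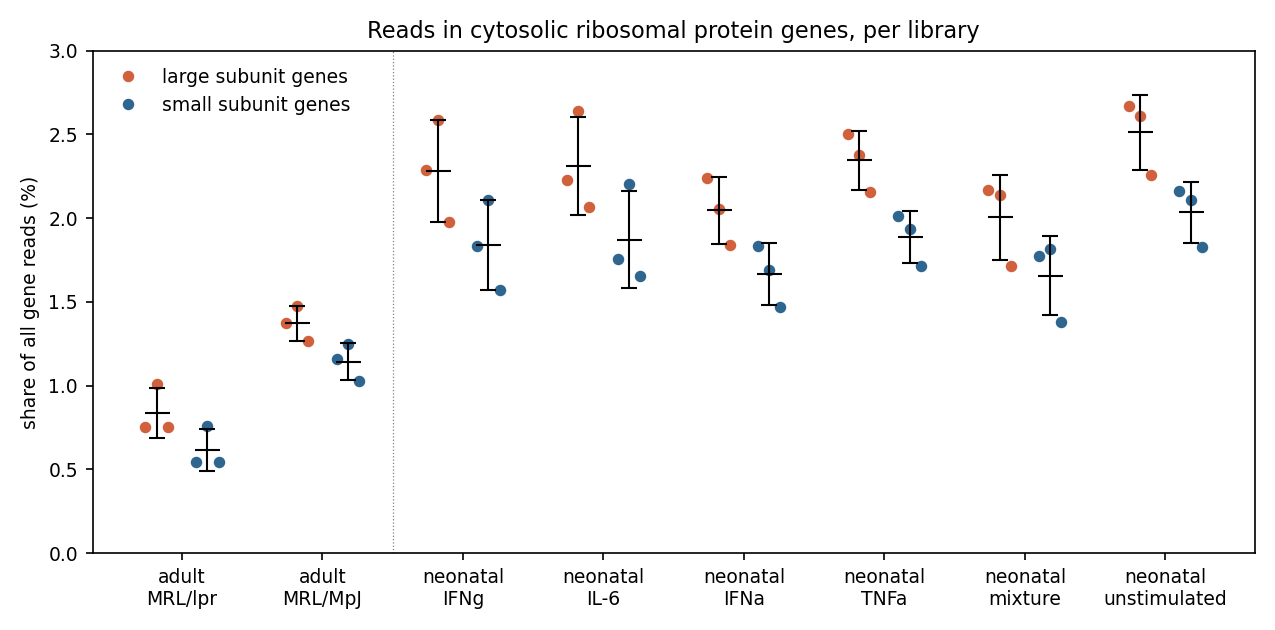
Share of gene reads (%, y axis) in large and small subunit ribosomal protein genes in each of the 24 libraries (points, by group on the x axis), with mean and SD of 3 libraries. Both subunits were lower in each adult MRL/lpr library than in each adult MRL/MpJ library, and all neonatal libraries lay above the adult ones.

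Over the 8 group means of plain CPM, adult MRL/lpr was the lowest group for 75 of 79 members, and unstimulated neonatal cells were the highest for 64. Such counts were not made over all genes. Plain CPM is scaled by total counts, and the order of the neonatal groups depends on that. With the mixture, the median log2 fold change of the members was -0.32 by total counts and 0.09 by TMM. Over all genes it was -0.47 and -0.05. The coefficient of variation over the 8 group means of plain CPM had a median of 29.8%. It was smallest for Rpl7l1 (15.5%), Rps9 (16.9%) and Rpl35a (20.2%) and largest for Rps27l (43.5%), Rpsa (40.9%) and Rpl41 (40.3%). Rpsa, a small subunit protein also known as a laminin receptor, averaged 277 ± 34.9 CPM in adult MRL/lpr and 479 ± 31.6 CPM in adult MRL/MpJ. In the neonatal groups it averaged 1256 ± 174 CPM with IFNg, 1272 ± 151 with IL-6, 1058 ± 72.6 with IFNa, 1305 ± 109 with TNFa, 1049 ± 132 with the mixture and 1418 ± 120 in unstimulated cells (SD, n = 3 each). In the order of the neonatal means, from the mixture through IFNa, IFNg, IL-6 and TNFa to unstimulated cells, each group lay within the larger SD of its neighbour except IFNg over IFNa, and the adult groups lay apart from each other and below all of these. The ranking of the 79 genes within a group moved little, as a description across genes that share libraries and lengths: Spearman's rho of mean levels was 0.971 between adult MRL/lpr and adult MRL/MpJ, and 0.996 between the mixture and unstimulated cells.

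In adult MRL/lpr microglia, 75 of the 79 genes were lower than in MRL/MpJ microglia and 0 were higher (edgeR's quasi-likelihood test, Benjamini-Hochberg adjusted p under 0.05 over 13799 genes tested). Over all genes, 21.6% were called lower, 24.1% higher and 45.7% in either direction. The median log2 fold change of the members was -1.04, a level 2.06-fold lower, beside 0.01 over all genes, and 44 members were at least 2-fold lower. The fall took in 44 of 47 large subunit genes (median -0.96) and 31 of 32 small subunit genes (median -1.12). All 79 fitted changes were below 0, between -1.52 and -0.11, and 76 were with total counts in place of TMM scaling. Levels did not overlap between the groups for 76 members, against 26.4% of all genes in that direction.

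**Figure D2:**
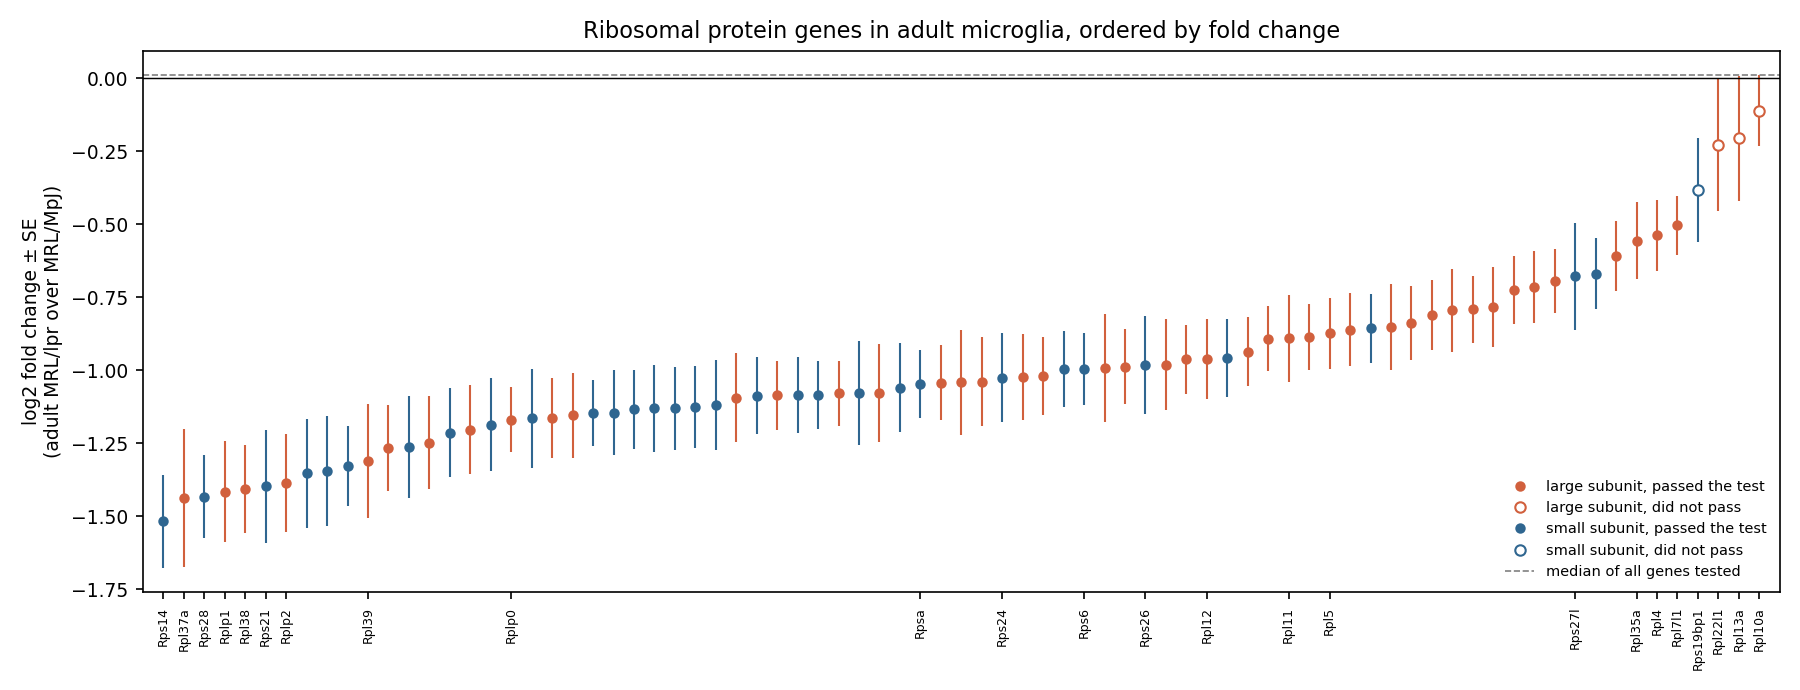
Log2 fold change with its standard error (y axis) of adult MRL/lpr over adult MRL/MpJ for each of the 79 ribosomal protein genes (x axis, ordered by size, with the members described in the text named), 3 libraries per group. Filled points passed the test, open points (Rps19bp1, Rpl22l1, Rpl13a and Rpl10a) did not, and the dashed line marks the median of all genes tested, at 0.01.

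Levels below are TMM-scaled CPM. Rps14, a protein of the small subunit's platform beside the decoding site, encoded on chromosome 18, fell the furthest. It stood at 216.8, 301.0 and 207.4 in adult MRL/lpr, against 732.2, 775.7 and 566.4 in MRL/MpJ. The highest MRL/lpr library was well below the lowest MRL/MpJ library (log2 fold change -1.52 ± 0.159 SE, edgeR adjusted p = 2.04e-05). Rpl37a, a zinc finger protein of the large subunit, stood at 107.8, 186.8 and 108.4 in MRL/lpr, against 344.8, 453.6 and 293.1 in MRL/MpJ (-1.44 ± 0.237, edgeR adjusted p = 0.00107). Rps28, which lies where the mRNA leaves the small subunit, stood at 87.9, 127.3 and 87.6 in MRL/lpr, against 285.6, 269.5 and 261.5 in MRL/MpJ (-1.43 ± 0.143, edgeR adjusted p = 1.42e-05). In these genes replicate 2 of MRL/lpr was the highest of its group and did not reach any MRL/MpJ library. That library held the highest summed share of the members among the MRL/lpr libraries. Without it the median of the members was -1.19, and 75 were still called lower.

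The stalk that carries elongation factors to the ribosome fell with the other members, with 4 of 4 genes called lower and a median log2 fold change of -1.28. As 75 of the 79 members were called lower, beside 21.6% of all genes, the counts by part below do not set any part apart. Rplp1 stood at 354.5, 560.9 and 349.1 TMM-scaled CPM in adult MRL/lpr, against 1117, 1253 and 1001 in MRL/MpJ (-1.41 ± 0.173, edgeR adjusted p = 6.34e-05). Its partner Rplp2 changed by -1.39 ± 0.168, Rplp0 at the base of the stalk by -1.17 ± 0.112 and Rpl12 beside it by -0.96 ± 0.137. Rpl5 and Rpl11 bind 5S RNA and, outside the ribosome, hold back Mdm2, the ubiquitin ligase of p53. They were both lower, by -0.87 ± 0.122 and -0.89 ± 0.150. Of the proteins that line or ring the tunnel through which the new chain leaves, 8 of 8 were called lower (median -0.98), from Rpl39 at -1.31 ± 0.195 to Rpl4 at -0.54 ± 0.122. Of the small subunit proteins along the mRNA channel and at the decoding site, 8 of 8 were called lower (median -1.20), with Rps26 the least changed at -0.98 ± 0.167. Rpl39, Rpl4 and Rps26 were named after their values were seen. So were Rpl38, a large subunit protein whose loss alters the axial skeleton of mice, at 47.1, 64.5 and 43.2 in MRL/lpr against 132.4, 152.5 and 125.3 in MRL/MpJ (-1.41 ± 0.150), and Rps21, at 96.9, 159.9 and 95.9 in MRL/lpr against 319.9, 348.9 and 260.4 in MRL/MpJ (-1.40 ± 0.193). Rpl38, with a tract of 8 bases, and Rps28, with none in its window, changed by -1.41 and -1.43. Both were picked for their large change, so this likeness follows from the choice. Whether the tract has a part in the change was not tested.

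Rps6, the substrate after which the S6 kinases are named, stood at 147.6, 196.3 and 148.3 TMM-scaled CPM in adult MRL/lpr, against 331.8, 341.2 and 308.0 in MRL/MpJ (-0.995 ± 0.124, edgeR adjusted p = 6.46e-05). Rpsa stood at 238.9, 293.8 and 227.8 in MRL/lpr, against 541.8, 542.8 and 486.1 in MRL/MpJ (-1.05 ± 0.116, edgeR adjusted p = 2.92e-05). Neither gene overlapped between the strains. At the other end, Rpl35a, a large subunit protein, stood at 51.7, 62.9 and 46.9 in MRL/lpr, against 84.9, 82.0 and 70.6 in MRL/MpJ, a smaller difference that also passed (-0.56 ± 0.131, edgeR adjusted p = 0.00454). Rps6 was named after its value was seen.

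Rps10 and Rpl24, left out by the level of the rule, went the other way at low counts. Rps10 stood at 12.6, 13.6 and 12.9 plain CPM in adult MRL/lpr, against 0.399, 1.41 and 0.622 in MRL/MpJ (3.78 ± 0.380, edgeR adjusted p = 1.51e-05). Rpl24 stood at 1.1, 0.847 and 0.697 in MRL/lpr and at 0 in all 3 MRL/MpJ libraries (edgeR adjusted p = 0.00384). Both share exon bases with another gene, as given above, and which gene these reads came from was not tested. The 0 higher among the 79 therefore holds for the members by the rule.

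The 4 members that did not pass were Rpl10a, Rpl13a, Rpl22l1 and Rps19bp1. Rpl10a, at chr17:28328471-28331033, encodes the protein of the L1 stalk, past which spent tRNAs leave the large subunit. Its level was 216.5, 274.0 and 215.3 TMM-scaled CPM in adult MRL/lpr, against 240.3, 281.6 and 240.2 in MRL/MpJ. The groups overlapped (log2 fold change -0.11 ± 0.120, edgeR adjusted p = 0.483), at a read depth like that of Rpl5 and Rpl11, which were called lower. Whether Rpl10a differed from the other members was not tested, and it was singled out after its value was seen. The other 3 are the members with the lowest per-length levels: Rpl13a changed by -0.21 ± 0.215 (adjusted p = 0.463), Rpl22l1 by -0.23 ± 0.226 (0.439) and Rps19bp1 by -0.38 ± 0.178 (0.101), all by edgeR.

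Fau and Rack1, ribosomal proteins under other symbols, were lower in adult MRL/lpr. Fau, which encodes a small subunit protein fused to a ubiquitin-like one, stood at 199.6, 275.5 and 194.2 TMM-scaled CPM in adult MRL/lpr, against 564.6, 596.4 and 491.0 in MRL/MpJ (-1.30 ± 0.141, edgeR adjusted p = 2.57e-05). Rack1, a scaffold on the head of the small subunit, changed by -0.83 ± 0.118 (edgeR adjusted p = 0.000168). Among 7 paralogues and look-alikes tested, 3 were lower and 1 was higher. Rpl7l1, a nucleolar relative of Rpl7, fell by 0.50 on the log2 scale (SE 0.102, edgeR adjusted p = 0.00176), Rps27l by 0.68 (SE 0.182, 0.00956) and Rps4l by 0.62 (SE 0.187, 0.0173). With total counts in place of TMM none of these 3 passed (edgeR adjusted p = 0.0664, 0.087 and 0.138). Rps4l did not pass without MRL/lpr replicate 3 (adjusted p = 0.085) or without MRL/MpJ replicate 3 (0.0845). Rpl36al, a relative of Rpl36a, was higher at 0.951, 1.40 and 1.73 in MRL/lpr against 0, 0 and 0.205 in MRL/MpJ (edgeR adjusted p = 0.00542), too few reads for a fold change.

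Mitochondrial ribosomal protein genes, which serve the other ribosome of the cell, gave 22 lower and 5 higher of 77 tested, with a median log2 fold change of -0.25. The counts of this and the other lists of the adult comparison stand beside 21.6% of all genes called lower and 24.1% higher. Cytosolic elongation and termination factors gave 10 lower and 1 higher of 13. Eef1a1, which brings aminoacyl-tRNA to the ribosome, stood at 2021, 2366 and 1954 TMM-scaled CPM in adult MRL/lpr, against 4451, 3848 and 4123 in MRL/MpJ, with no overlap (-0.97 ± 0.107, edgeR adjusted p = 2.95e-05). Its exchange factor Eef1b2 changed by -1.12 ± 0.151 and Pelo, which frees stalled ribosomes, by -1.10 ± 0.286. Initiation factors gave 17 lower and 4 higher of 38. The helicase Eif4a2 was higher, at 399.1, 357.1 and 389.6 in MRL/lpr against 106.6, 120.2 and 112.2 in MRL/MpJ (1.76 ± 0.101, edgeR adjusted p = 2.18e-07).

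Genes that act on ribosome synthesis were mixed. In the list of mTORC1, S6 kinases and 4E-BPs, 5 were higher and 5 lower of 16. The S6 kinase gene Rps6kb2 stood at 41.2, 38.6 and 44.8 TMM-scaled CPM in adult MRL/lpr, against 9.39, 9.09 and 7.78 in MRL/MpJ (2.25 ± 0.146, edgeR adjusted p = 5.57e-07), and Rps6kb1 changed by 1.26 ± 0.219. Other RNAs with a pyrimidine tract gave 6 higher and 5 lower of 13. The higher ones included Snhg6 (3.79 ± 0.449), Snhg1 (3.1 ± 0.301) and Snhg5 (2.98 ± 0.289), non-coding hosts of small nucleolar RNAs whose spliced RNA is short-lived. The eIF2α kinase and stress list gave 5 higher and 1 lower of 9, with Eif2ak4, a sensor of amino acid shortage, at 1.31 ± 0.188. The list of Myc and ribosome regulators gave 2 higher and 3 lower of 13, with the polymerase I factor Rrn3 at -0.77 ± 0.112 and no call for Myc (0.20 ± 0.168, edgeR adjusted p = 0.368).

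Several other measures moved with the strain, and their part in these results was not tested. The T and NK cell list had 9 of 14 genes higher and summed to 62.8 to 74.9 CPM in adult MRL/lpr, against 11.18 to 28.0 CPM in MRL/MpJ, where Cd8b1 and Klre1 were at 0. B and plasma cell markers summed to 598 to 750 CPM in MRL/lpr and 364 to 408 CPM in MRL/MpJ (2 of 5 tested higher, 1 lower), and monocyte and neutrophil markers to 256 to 415 CPM and 193 to 377 CPM (3 of 8 higher). Microglia markers gave 8 of 10 lower in MRL/lpr and border macrophage markers 6 of 7 lower. Immediate early genes, which respond to tissue digestion, gave 15 of 18 higher and summed to 4779 to 5112 CPM in MRL/lpr, against 1801 to 1938 CPM in MRL/MpJ. Nuclear-retained RNAs gave 3 of 4 higher, with 1004 to 1406 CPM in MRL/lpr against 72.4 to 177.8 CPM in MRL/MpJ.
The RNA Gm42418, annotated over ribosomal RNA sequence, held 1650 to 2165 CPM in MRL/lpr and 3217 to 13375 CPM in MRL/MpJ. The read-weighted median gene length was 4322 to 4730 bases in the MRL/lpr libraries, against 3917 to 4229 bases for MRL/MpJ. Other protein-coding genes with a principal transcript of up to 1000 bases gave 175 lower and 81 higher of 659, with a median log2 fold change of -0.25, beside -1.04 for the members. The labels name no batch, so strain and preparation cannot be told apart.

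Reads of the large subunit outnumbered those of the small one by more in adult MRL/lpr cells. The ratio of large to small subunit reads was 1.38, 1.33 and 1.38 in adult MRL/lpr, against 1.19, 1.18 and 1.23 in MRL/MpJ, without overlap (means 1.36 ± 0.0286 and 1.201 ± 0.0276, SD, n = 3 each). Without paralogues and look-alikes the ratios were 1.37, 1.32 and 1.37 in MRL/lpr and 1.18, 1.17 and 1.22 in MRL/MpJ. The 18 neonatal libraries lay between 1.18 and 1.27, and the mean was 1.24 ± 0.0154 with IFNg, 1.24 ± 0.0353 with IL-6, 1.23 ± 0.0186 with IFNa, 1.24 ± 0.0166 with TNFa, 1.21 ± 0.0313 with the mixture and 1.24 ± 0.0011 in unstimulated cells (SD, n = 3 each). The unstimulated libraries lay inside the range of each cytokine group. As the ratio sums members chosen with results known, no p is given.

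**Figure D3:**
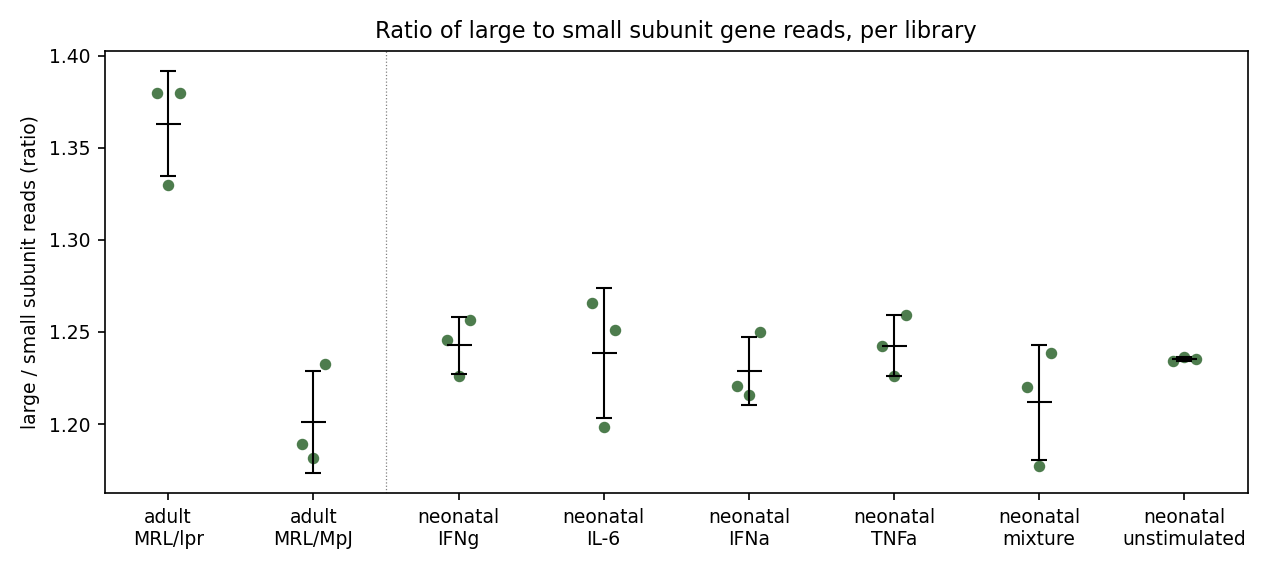
Ratio of reads in large subunit genes to reads in small subunit genes (y axis, not from 0) in each of the 24 libraries (points, by group on the x axis), with mean and SD of 3 libraries. The 3 adult MRL/lpr libraries, at 1.33 to 1.38, lay above the 21 others, which spanned 1.18 to 1.27.

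Few or none of the ribosomal protein genes were called after 6 h with cytokines. The 5 cytokine groups were each set against the same 3 unstimulated libraries, so these comparisons are not independent of each other. The main fit did not pair libraries by replicate number, and the fit with that number as a block is given below. With IFNg, edgeR called 0 of 79 members, beside 12.9% of the 14626 genes tested. With IL-6 it called 0, beside 0.978%, with IFNa 0, beside 14.5%, and with TNFa 0, beside 8.1%. With the mixture it called 1 member lower and 0 higher, beside 16.4% of genes called lower, 15.7% higher and 32% in either direction. At an unadjusted p under 0.05 the counts of members were 0, 2, 2, 0 and 3 in that order of cytokines. Every gene called above also met that rule, so its shares of all genes are at least those above. The shares themselves are not given here, so these counts of members cannot be read as high or low. DESeq2 called 0, 1, 1, 0 and 3 members. Over all 14626 genes it called 113 lower with IL-6 and 928 lower with IFNa, the direction of these members. With the mixture it called 2684 genes higher and 2364 lower, beside 2 members higher and 1 lower.

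**Figure D4:**
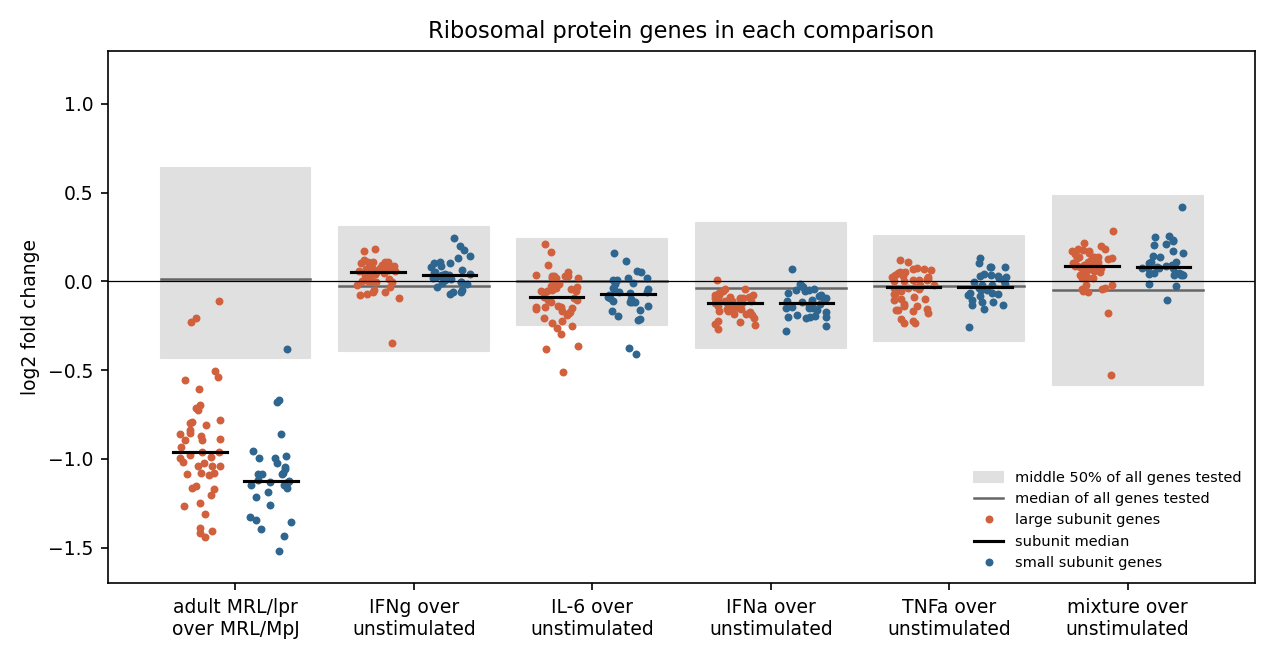
Log2 fold changes (y axis) of the ribosomal protein genes of the large and small subunit (points) in each of the 6 comparisons (x axis), with subunit medians (black bars) and the median and middle 50% of all genes tested (grey). Members lay at a median of -1.04 in adult MRL/lpr over MRL/MpJ and between -0.12 and 0.09 in the 5 cytokine comparisons.

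The median log2 fold change of the members was 0.04 with IFNg, -0.08 with IL-6, -0.12 with IFNa, -0.03 with TNFa and 0.09 with the mixture, beside -0.02, 0.00, -0.04, -0.02 and -0.05 over all genes. With IFNa, 77 of 79 fitted changes were below 0 and levels of 18 members lay below all unstimulated libraries, beside 14.4% of all genes. The same held for 6 members with IL-6, beside 7.08%, and 7 with TNFa, beside 12.9%. With the mixture, 67 of 79 were above 0 and 14 members lay above all unstimulated libraries, beside 19.7% of all genes. Members share the same libraries and scaling, so counts of members on one side of 0 are not independent results. Standard errors of single members were 0.102 to 0.252. With TMM scaling, fitted changes with 2 standard errors either side reached from -0.69 to 0.55 with IFNg, -0.96 to 0.48 with IL-6 and -0.68 to 0.41 with IFNa. They reached from -0.76 to 0.50 with TNFa and from -0.87 to 0.76 with the mixture. A 2-fold change of any member lay outside these bounds, which hold for TMM scaling only. On plain CPM, Rpl13a averaged 9.40 ± 0.794 with the mixture and 18.2 ± 3.20 in unstimulated cells (SD, n = 3 each). Bounds for other scalings are not given here.
With IFNg and the mixture the sign of the small medians of the members rested on the scaling, and with IL-6, IFNa and TNFa it was below 0 with TMM, RLE and total counts. Over left-out libraries the medians were -0.082 to 0.12 with IFNg, -0.21 to -0.0014 with IL-6 and -0.16 to -0.062 with IFNa. They were -0.061 to 0.0042 with TNFa and 0.058 to 0.20 with the mixture, so with IFNg and TNFa the sign also changed with the libraries used. Total counts in place of TMM moved the median of all genes to -0.21 with IFNg, -0.22 with IFNa, -0.47 with the mixture and 0.27 in the adult comparison. The median of the members was then -0.14 with IFNg and -0.32 with the mixture. With the mixture 23 members were called lower by total counts, beside 4993 of all 14626 genes tested. Relative to the median of all genes, the members stood at 0.14 by TMM and 0.15 by total counts with the mixture, and at -1.05 by both in the adult comparison.

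By role, 0 genes of the stalk, the 5S particle, the exit tunnel or the mRNA channel were called with any cytokine or the mixture (edgeR without the replicate block, with which Rplp0 of the stalk was called lower with IFNa, adjusted p = 0.0352). The stalk genes had a median log2 fold change of -0.02 with IFNg, -0.21 with IL-6, -0.16 with IFNa, -0.09 with TNFa and 0.06 with the mixture. The tunnel genes lay at 0.08, 0.00, -0.10, 0.02 and 0.12 in that order, and the mRNA channel genes at 0.03, -0.09, -0.11, -0.05 and 0.09. Rplp1, the most abundant per length, stood at 821, 1169 and 1003 TMM-scaled CPM with IL-6, against 1208, 1297 and 1171 in unstimulated cells. These groups did not overlap, by a narrow margin, and the test did not pass (-0.30 ± 0.148, edgeR adjusted p = 0.559).

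The member called with the mixture was Rpl13a, at chr7:45125558-45128761. Its protein sits on the large subunit, and in human monocytes it is released after IFNg and silences inflammatory mRNAs. It stood at 11.28, 11.22 and 11.38 TMM-scaled CPM with the mixture, against 17.67, 15.86 and 15.29 in unstimulated cells, without overlap (-0.53 ± 0.172, edgeR adjusted p = 0.0269). With each cytokine alone it changed by -0.35 ± 0.171 with IFNg, 0.03 ± 0.170 with IL-6, -0.27 ± 0.171 with IFNa and -0.16 ± 0.170 with TNFa, none of which passed (edgeR adjusted p = 0.236, 0.995, 0.386 and 0.753). Rpl13a is the member with the fewest reads. Its call was lost without any of the 3 mixture libraries or unstimulated replicates 1 or 2, with an adjusted p of up to 0.116, and its change stayed between -0.57 and -0.46.

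In the neonatal libraries same-numbered replicates deviated together, and blocking on replicate number in the fit called 0 members with IFNg and TNFa, 2 with IL-6, 2 with IFNa and 4 with the mixture. Over all genes the blocked fit called 23.7% in either direction with IFNg and 17.4% with TNFa, 1.85% lower with IL-6, 11.1% lower with IFNa, and 20.5% higher and 22.6% lower with the mixture. Rps19, the small subunit protein most often mutated in human Diamond-Blackfan anaemia, stood at 362.8, 412.9 and 441.4 TMM-scaled CPM with IL-6, against 529.2, 539.6 and 512.2 in unstimulated cells, without overlap. Rplp0 stood at 578.9, 577.9 and 584.6 with IFNa, against 664.9, 661.8 and 707.9 in unstimulated cells, also without overlap. With IL-6 the calls were Rps19 (-0.38, edgeR adjusted p = 0.017 with the block and 0.245 without) and Rpl36 (-0.39, 0.0498 and 0.543), both lower. With IFNa they were Rpsa (-0.25, 0.0313 and 0.266) and Rplp0 (-0.22, 0.0352 and 0.18), both lower. With the mixture 3 were higher, among them Rps24 and Rps13 (0.23, 0.0336 and 0.224), and Rpl13a was lower (-0.52, 0.015 and 0.0269). Apart from Rpl13a and Rplp0, these members were named after their values were seen.
Rps24, at chr14:24487125-24496959, encodes a small subunit protein mutated in some human families with Diamond-Blackfan anaemia. It stood at 1026, 1125 and 897 TMM-scaled CPM with the mixture, against 741, 822 and 712 in unstimulated cells. The groups did not overlap (0.42 ± 0.169, edgeR adjusted p = 0.0686, and 0.00384 with the block). On plain CPM they did overlap, at 849 ± 146 with the mixture and 842 ± 99.1 in unstimulated cells (SD, n = 3 each).

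**Figure D5:**
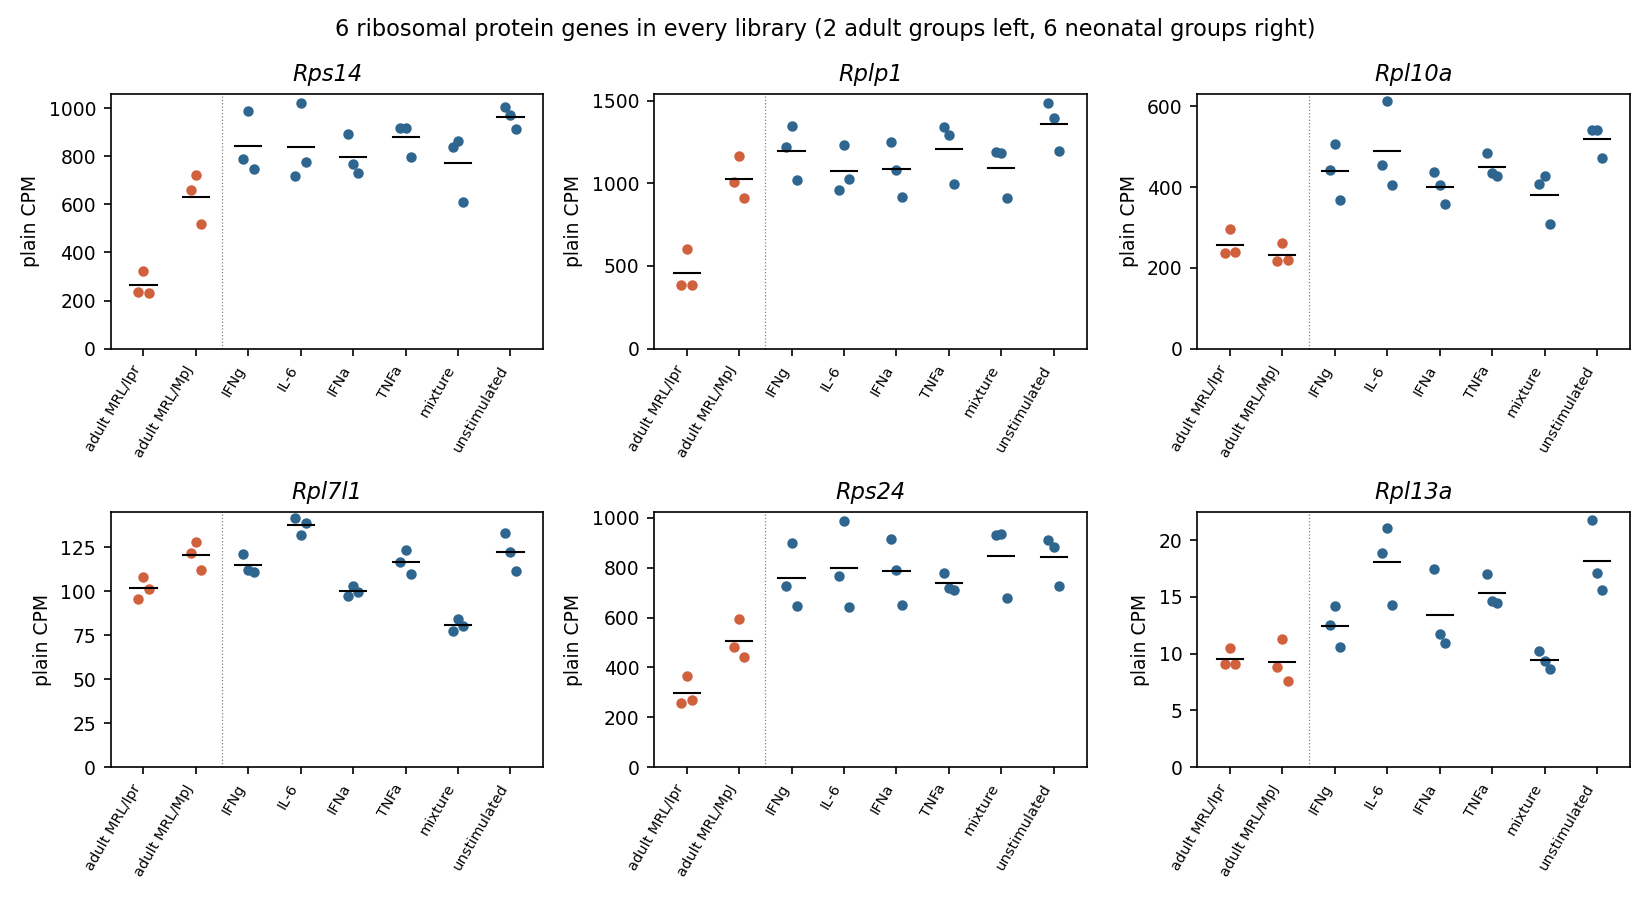
Plain CPM (y axes from 0) of Rps14, Rplp1, Rpl10a, Rpl7l1, Rps24 and Rpl13a in each of the 24 libraries (points, by group on the x axes), with the mean of 3 libraries (bars). Rps14, Rplp1 and Rps24 were lower in adult MRL/lpr than in adult MRL/MpJ, Rpl10a overlapped between the strains, and Rpl13a was lowest among neonatal groups with the mixture.

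Single genes that act on translation were called with each cytokine except IL-6, with which 0 genes of the 6 lists of translation genes were called by edgeR. With IL-6, 7 of 38 initiation factors had an unadjusted p under 0.05. The share of all genes under that rule is not given here, so 7 of 38 is no result about the list. The fit with the replicate block called 6 genes of that list higher, and 1 elongation or termination factor and 1 gene of the eIF2α list higher. In the mTORC1 list it called 1 gene higher and 1 lower. Over all 14626 genes the blocked fit called 444 higher and 270 lower with IL-6. Larp1, whose protein binds the pyrimidine tract, stood at 500.2, 542.7 and 680.8 TMM-scaled CPM with the mixture, against 145.7, 137.8 and 162.2 in unstimulated cells (1.95 ± 0.167, edgeR adjusted p = 3.07e-07). It rose by 1.33 ± 0.164 with IFNg and by 1.59 ± 0.165 with IFNa, whereas its change of 0.67 ± 0.162 with TNFa (adjusted p = 0.0139) was lost without any of TNFa replicate 3 and unstimulated replicates 1 and 2 (adjusted p of up to 0.0999).
Eef2k, the kinase that stops the elongation factor eEF2, was lower, at 5.35, 5.46 and 4.30 with the mixture against 36.1, 36.6 and 41.1 in unstimulated cells (-2.91 ± 0.313, edgeR adjusted p = 2.99e-06). It also fell by 1.63 on the log2 scale with IFNa (SE 0.294) and by 1.61 with TNFa (SE 0.293). Eif2ak2, an interferon-induced kinase of eIF2α, rose by 1.99 ± 0.265 with the mixture, 1.83 ± 0.263 with IFNa and 1.17 ± 0.259 with IFNg. Eif6, which keeps free large subunits from joining, rose by 1.44 ± 0.173 with the mixture and 1.07 ± 0.172 with TNFa. Mxd1, a partner of Max that opposes Myc, stood at 320.3, 273.2 and 321.9 with the mixture against 8.32, 8.44 and 8.04 in unstimulated cells (5.20 ± 0.343, edgeR adjusted p = 3.7e-08). Fau and Rack1 did not pass in any of the 5 comparisons, with changes of -0.20 to 0.10 for Fau and -0.10 to 0.08 for Rack1.
With the mixture, where 15.7% of all genes were called higher and 16.4% lower, elongation and termination factors gave 2 higher and 2 lower of 13, initiation factors 6 and 5 of 38, the mTORC1 list 1 and 5 of 16, the tract list 0 and 3 of 13, the eIF2α list 4 and 2 of 9, and the Myc list 3 and 3 of 13. In the tract list Snhg12 (-1.20 ± 0.256) and Gas5 (-0.71 ± 0.147) were lower. Mitochondrial ribosomal protein genes gave 8 higher and 8 lower of 77.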

How the data were processed

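Per the submitters' processing notes, cutadapt 2.1, STAR 2.7.1a and the mm10 build were used, and per the labels' protocols libraries were made from total RNA with a directional kit. The deposited table holds raw read counts per gene, without normalisation, per the file headers, beside a length for each gene. How reads were assigned to genes, and whether by strand, is not given in the sources used here. Reads of overlapping genes can therefore not be told apart with certainty.

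The 6 adult and the 18 neonatal libraries were fitted apart on whole-table counts with edgeR 4.0.16 in R 4.3.3 (filterByExpr, TMM, robust quasi-likelihood test), and p-values were adjusted by Benjamini-Hochberg over all 13799 and 14626 genes tested. SE is the fold change over the root of F. DESeq2 1.42.0, other scalings, no filter, left-out replicates and the replicate number as a block were alternatives. The main fits did not use the replicate number, so their calls and SE are unpaired. In the neonatal set 45 of 45 same-numbered pairs correlated above 0.1 in their deviations from group means (0.247 to 0.737). In the adult set 2 of 3 pairs did. The fit with the block is therefore given beside the main neonatal results. The procedure was tested on simulated data. No same-group libraries were identical. Principal transcripts and gene positions are from GENCODE M21, and sequences from RefSeq.

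Genes were named by rule: up to 4 called members in each direction with the largest change per comparison, the 3 highest and 3 lowest in per-length level and in variation, members of the 5S, stalk, paralogue and other-symbol lists, up to 3 called genes per translation list and Fas. The text says where others were added, and some single genes are not reported here. Members and lists were chosen with earlier results of these data known.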

Additional observations from a re-analysis of the deposited data

How the results depend on the processing

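The adult result of 75 members called lower and 0 higher was the same with RLE scaling, TMM without the members, no filter, DESeq2, the replicate block and each of 6 left-out libraries, where the median log2 fold change was -1.19 to -0.94. Total counts gave 71 called lower, beside 1439 of all 13799 genes tested, and a median of -0.78. Of all calls 76.9% were then higher in place of 52.7%, and Rpl10a stood at 0.15. Whether adult libraries with the same number were prepared together is not in the labels. Of these pairs, 2 of 3 correlated above 0.1 in their deviations from group means (0.080 to 0.224). Total counts gave medians of -0.14 with IFNg, -0.29 with IFNa, -0.10 with TNFa and -0.32 with the mixture. They called 7 members with IFNa and 23 with the mixture, all lower, beside 1560 and 4993 of 14626 genes called lower. The share of all calls that were higher was then 45.1%, 43.3% and 23.7% with IFNg, IFNa and the mixture, in place of 66.5%, 65.0% and 48.8%. Members called with the mixture were 3 with RLE scaling, 3 with DESeq2, 0 without the filter and 4 with the replicate block. They were 0 to 1 over left-out libraries, with medians of 0.058 to 0.20. Of all 14626 genes, 2493 were called higher and 2137 lower with RLE scaling, 2684 and 2364 with DESeq2, and 3002 and 3312 with the block. DESeq2 called 1 member lower with IL-6 and 1 with IFNa, beside 113 and 928 of all genes. The replicate block called 2 members lower with each, beside 270 and 1619 of all genes. The block changed no other count of members called. With TMM library sizes the share was 4.39% with the mixture, 4.1% in unstimulated cells, and in adult cells 1.33% for MRL/lpr and 2.75% for MRL/MpJ. The cause of these shifts was not tested. Depth limits Rpl13a most, and 3 libraries per group limit all calls.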
